A study of Homo sapiens with 8 samples.

Results

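The 51 genes described here encode the proteins that license replication origins, unwind and copy DNA at the fork, and supply deoxynucleotides. They were chosen by gene function and not by a measured value, but with earlier results of these data known. All 51 were found among the 18417 genes measured on the arrays. Each was represented by 1 probe set with a single gene symbol, and 0 of the 51 had more than 1 such probe set. Gene expression was measured with Affymetrix human gene arrays in U2OS, a human osteosarcoma cell line. The CDK9 siRNA group held 4 cultures transfected with an siRNA against CDK9, and the control siRNA group held 4 cultures given a non-targeting siRNA. Cells of both groups grew in DMEM with 7.5% serum, received siRNA at 10 nM with the Hi-Perfect reagent and were collected after 72 h. The series' design text calls the replicates biological. All cultures were of a single cell line, and the sequences of the siRNAs were not at hand.

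DNA replication starts when the origin recognition complex, CDC6 and CDT1 load the MCM helicase onto chromatin during G1. The kinase CDC7 with DBF4, together with CDC45 and the GINS complex, turns the loaded helicase into a moving fork, where polymerases alpha, delta and epsilon copy the strands. Many replication genes are transcribed periodically under E2F factors, whose binding was not measured here. CDK9, the kinase of P-TEFb, releases paused RNA polymerase II, and the comparison asks how the mRNA levels of the replication genes differed once it was silenced. In bulk RNA, a change in the share of cells in S phase and a change in RNA per cell cannot be told apart.

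Of the 51 replication genes, 14 rose and 1 fell in CDK9 siRNA cells (limma, array set as a block, adjusted p under 0.05 over all 18417 genes). That is 27.5% higher and 1.96% lower, beside 6.73% and 7.47% of all genes tested, of which 14.2% passed in either direction. The members are well expressed, and 46 of them lie among the 4604 genes with the highest mean signal, of which 11.3% rose and 10.7% fell. Among the 2556 genes whose mean lay between 9.23 and 10.61, the central range of the members' means, 12.2% rose and 10.1% fell. The largest rises were those of the licensing factor CDC6 (1.62-fold), the clamp loader subunit RFC4 (1.39-fold) and the helicase subunit MCM6 (1.26-fold). The single fall was that of POLE2, an accessory subunit of polymerase epsilon.

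The changes were small. The median log2 difference of the members was 0.09 (1.07-fold), against 0.00 over all genes, and 41 of 51 members (80.4%) were above 0, against 49.5% of all genes. Only CDC6 changed by 1.5-fold or more, and the 95% confidence intervals of 48 members stayed below 1.5-fold (0.58 on the log2 scale). The calls depended on the blocks used in the fit. Blocking each same-numbered pair leaves the log2 differences as they are but fewer degrees of freedom to estimate the error. In a paired fit, with a block for each same-numbered pair, 4 members rose and 0 fell (20 and 1 by unadjusted p under 0.05), where 9.17% of all genes passed, 4.41% higher and 4.75% lower. The members' 7.84% was then near the 7.04% of the 4604 genes of highest signal and the 7.94% of genes of like mean, so the count of calls in that fit did not set the members apart. The 4 genes called higher in both fits were CDC6, RFC4, MCM6 and RPA2. CDC6, RFC4 and MCM6 kept their calls whichever single array was left out. Without a block, 0 members passed in limma and 1 was higher at an unadjusted p under 0.05, beside 28 of all genes.

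**Figure D1:**
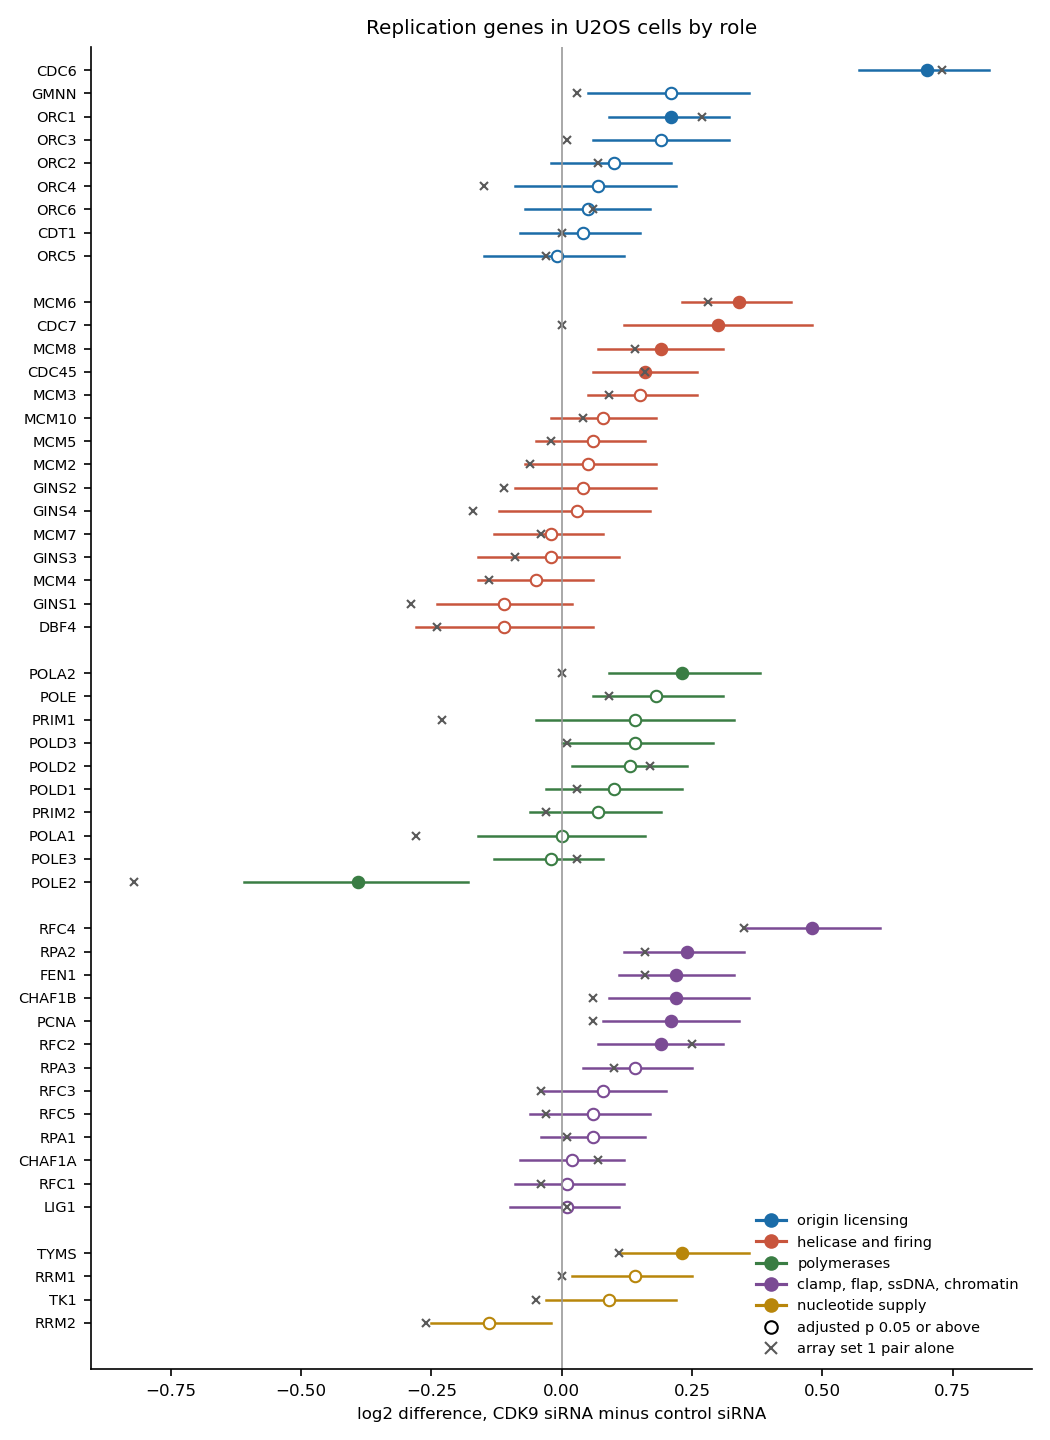
Log2 difference (CDK9 siRNA minus control siRNA, circles) with 95% confidence intervals for the 51 replication genes, by role, n = 4 arrays per group, with filled circles for the 15 genes called and crosses for the single pair of array set 1. CDC6 stands at 0.70 and RFC4 at 0.48, POLE2 at -0.39, and most others lie between -0.14 and 0.24.

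The arrays fell into a pair and a block of 6. Replicate 1 of both groups (array set 1) had medians of 5.85 and 5.80 over all probe sets, while replicates 2 to 4 (array set 2) lay between 6.99 and 7.04. Arrays correlated at 0.992 within set 1, at 0.992 to 0.997 within set 2 and at 0.975 to 0.981 between sets, so the sets were kept apart in the fit. CDK9 itself read 8.0, 9.03, 9.09 and 9.04 in replicates 1 to 4 of CDK9 siRNA cells, against 9.80, 10.86, 10.89 and 10.86 in control siRNA cells. Its log2 difference was -1.82 ± 0.05 (SE, n = 4 per group, limma adjusted p = 2.17e-07), and the groups did not overlap within either set. Of 9 osteosarcoma and mesenchymal markers, 8 lay above the limit of the dimmest 30% of genes, while 3 of 4 leukocyte and all 4 endothelial markers lay below it. Only 2 of 6 epithelial markers lay below that limit. The keratins KRT8 and KRT18 had mean log2 values of 12.61 and 12.44, above the 12.14 of SPARC, the brightest of the 9. Of those 9, SPP1 was higher and RUNX2, COL1A1, VIM and CDH11 were lower with CDK9 siRNA, of which VIM was not called in the paired fit (adjusted p = 0.0808). Their summed log2 level ran from 82.56 to 82.83 on CDK9 siRNA arrays of set 2 and from 83.20 to 83.82 on control arrays. Of 6 epithelial markers, 2 lay above 0 and 1 passed, EPCAM, itself in the dimmest 30% (0.32, adjusted p = 0.0366, and 0.0841 in the paired fit). CLDN4 lay at 0.16, and KRT8, KRT19, CDH1 and KRT18 at -0.23, -0.14, -0.06 and -0.03, none of which passed. The summed log2 level of these 6 ran from 51.41 to 51.94 on CDK9 siRNA arrays of set 2 and from 51.20 to 51.70 on control arrays, and the part of both lists in the results was not tested.

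Among the 9 licensing genes, 2 rose and 0 fell, and the median log2 difference was 0.10. The role lists are small, and their counts stand beside 12.2% higher and 10.1% lower among genes of like mean. CDC6, the ATPase that recruits the MCM helicase to origins, read 10.83, 11.16, 11.27 and 11.31 in CDK9 siRNA cells, against 10.10, 10.54, 10.52 and 10.63 in control siRNA cells. It was higher in 4 of 4 same-numbered pairs, and in set 2 all 3 CDK9 siRNA arrays lay above all 3 controls. The difference was 0.70 ± 0.05 (SE, n = 4 per group, adjusted p = 0.000167), with 0.73 in set 1 and 0.68 in set 2, and it ranked 64 from the top of 18417 genes. Within set 2 the mean was 11.25 ± 0.07 in CDK9 siRNA cells and 10.56 ± 0.06 in control siRNA cells (SD, n = 3 each), so the gap was several times the spread of replicates. An exact two-sided permutation test within array sets gave p = 0.05, the smallest that 40 arrangements allow. Members that limma did not call, such as RPA1 (0.06) and MCM10 (0.08), reached the same value, so that test does not set CDC6 apart.

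Because CDC6 had the largest difference of the 51, its promoter is printed here (RefSeq, GRCh38.p14, chr17:40287629-40287908, plus strand), from 250 bases before the annotated start to 30 bases after it. Capitals mark 2 E2F-type cores, TTGGCGG from 27 to 21 bases before the start and TTGGCGC at bases 9 to 15 after it.
CDC6 promoter: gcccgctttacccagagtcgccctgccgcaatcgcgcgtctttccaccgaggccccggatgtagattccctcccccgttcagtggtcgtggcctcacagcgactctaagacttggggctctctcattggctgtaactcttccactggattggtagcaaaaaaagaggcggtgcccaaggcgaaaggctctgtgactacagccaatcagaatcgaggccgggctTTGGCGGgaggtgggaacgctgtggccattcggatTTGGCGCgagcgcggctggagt
The window also holds 3 CCAAT boxes on either strand, the element bound by NF-Y.

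The second licensing gene that rose was ORC1, the largest subunit of the origin recognition complex. It read 8.89, 9.34, 9.45 and 9.42 in CDK9 siRNA cells, against 8.63, 9.25, 9.19 and 9.22 in control siRNA cells. The difference of 0.21 ± 0.05 (SE, n = 4 per group, adjusted p = 0.0238) was present in 4 of 4 pairs, but ORC1 was not called in the paired fit (adjusted p = 0.0722). The other 5 subunits of the complex, ORC2 to ORC6, did not pass and ranged from -0.01 for ORC5 to 0.19 for ORC3. ORC3 had an adjusted p of 0.064, with 0.01 in set 1 and 0.24 in set 2. CDT1, the loading partner of CDC6, differed by 0.04 (95% confidence interval -0.08 to 0.15, adjusted p = 0.715). GMNN, geminin, the inhibitor of CDT1, differed by 0.21 (adjusted p = 0.0754).

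In the group of 15 helicase and origin firing genes, 4 rose and 0 fell, with a median of 0.05. MCM6, a subunit of the MCM2 to MCM7 ring, read 9.98, 11.23, 11.28 and 11.31 in CDK9 siRNA cells, against 9.70, 10.90, 10.91 and 10.93 in control siRNA cells. Both sets showed it, at 0.28 and 0.36, and the arrays of the 2 groups did not overlap within set 2. The fitted difference was 0.34 ± 0.05 (SE, n = 4 per group, adjusted p = 0.00213). The other 5 subunits of the ring did not pass. MCM3 came nearest, at 0.15 (adjusted p = 0.0562), and MCM2, MCM4, MCM5 and MCM7 lay at 0.05, -0.05, 0.06 and -0.02. The 95% confidence interval of MCM6 ran from 0.23 to 0.44 and overlapped that of MCM3 (0.05 to 0.26), and the difference between subunits was not tested.

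MCM8, a helicase subunit outside the MCM2 to MCM7 ring that acts in recombination, rose as well. Its levels were 9.90, 10.70, 10.69 and 10.73 with CDK9 siRNA, against 9.76, 10.41, 10.54 and 10.54 with control siRNA. The difference was 0.19 (adjusted p = 0.0393, and 0.0848 in the paired fit). CDC45, the helicase cofactor that travels with the fork, stood at 9.61, 10.39, 10.41 and 10.39 with CDK9 siRNA, against 9.45, 10.20, 10.24 and 10.26 with control siRNA. In both sets the CDC45 difference was 0.16 (adjusted p = 0.0423, and 0.108 in the paired fit). For both genes the CDK9 siRNA arrays of set 2 all lay above the controls.

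CDC7, the kinase that phosphorylates the loaded helicase, read 7.70, 9.07, 9.14 and 9.11 in CDK9 siRNA cells, against 7.70, 8.62, 8.67 and 8.81 in control siRNA cells. Its rise of 0.30 ± 0.08 (SE, n = 4 per group, adjusted p = 0.036, and 0.0771 in the paired fit) was 0.40 in set 2 and 0.00 in set 1. The test of that contrast between sets did not pass (adjusted p = 0.121). DBF4, its activating subunit, was the only member in the dimmest 30% of genes, and its difference of -0.11 did not pass (adjusted p = 0.391). None of the 4 GINS subunits passed in limma, also at an unadjusted p under 0.05 (0 of 4), and their differences lay between -0.11 for GINS1 and 0.04 for GINS2. MCM10, a scaffold of the fork, differed by 0.08 (adjusted p = 0.305).

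**Figure D2:**
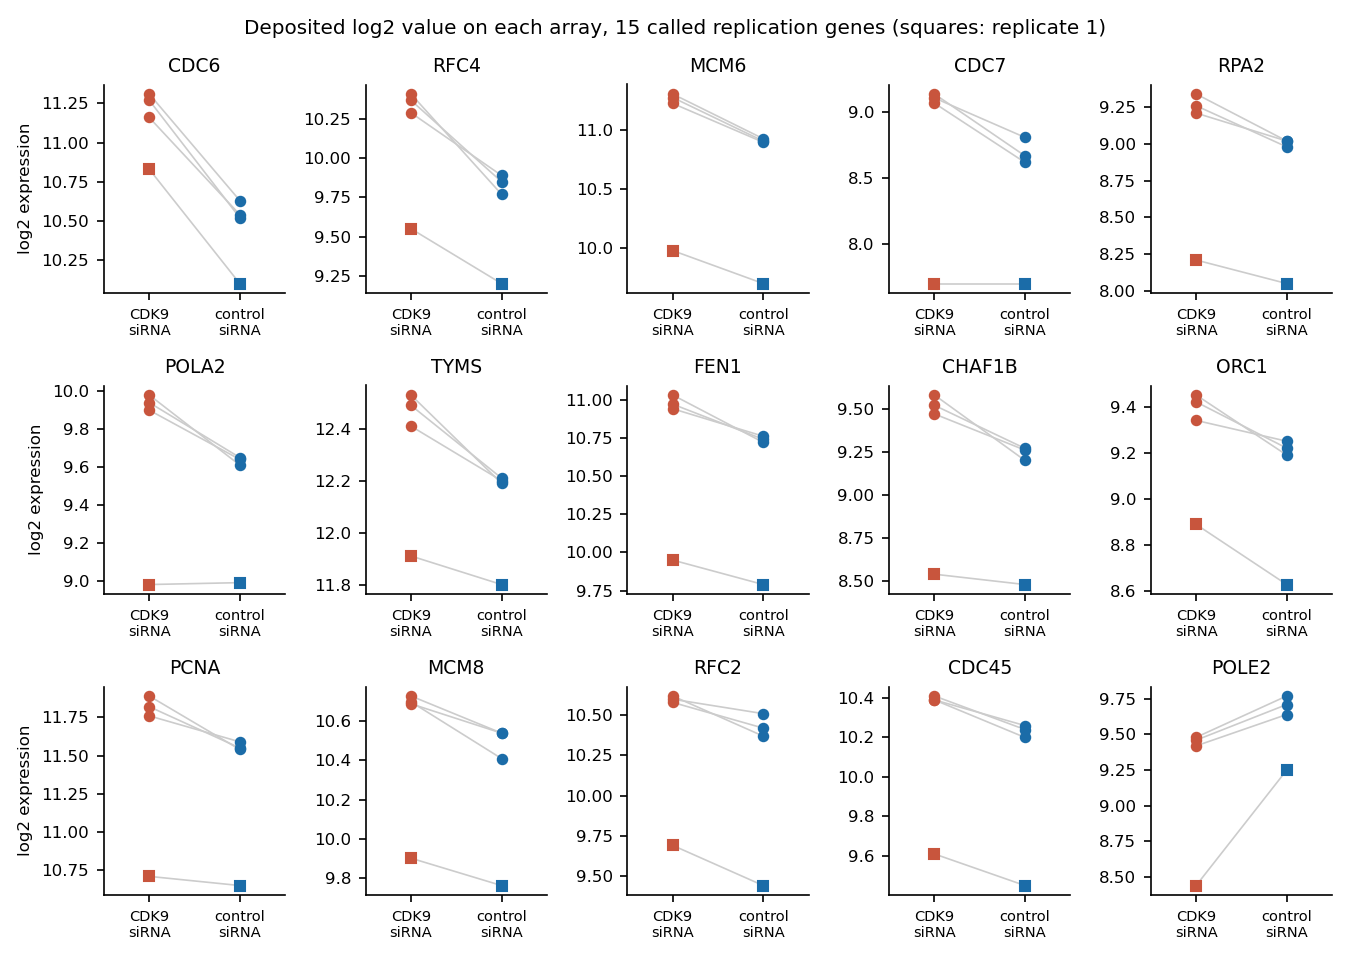
Deposited log2 expression of the 15 called replication genes on each array, CDK9 siRNA left and control siRNA right, lines joining same-numbered arrays, squares for replicate 1 (array set 1). In array set 2 the groups are separate in every panel, while CDC7 and POLA2 show differences of 0.00 in the replicate 1 pair.

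Polymerase genes moved in both directions, with 1 of 10 higher, 1 lower and a median of 0.12. POLE2, the second subunit of the leading strand polymerase epsilon, read 8.44, 9.42, 9.46 and 9.48 in CDK9 siRNA cells, against 9.25, 9.64, 9.71 and 9.77 in control siRNA cells. It was lower in 4 of 4 pairs, and the groups did not overlap within set 2. The fall was -0.39 ± 0.09 (SE, n = 4 per group, adjusted p = 0.0235), and it was not called in the paired fit (adjusted p = 0.0600). Its size differed between the sets, at -0.82 in set 1 and -0.25 in set 2 (interaction adjusted p = 0.0465), and set 2 alone also called it (adjusted p = 0.0158). POLE, the catalytic subunit of the same polymerase, differed by 0.18 (adjusted p = 0.0606), and POLE3, a histone-fold subunit, by -0.02 (adjusted p = 0.795).

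As POLE2 was the one member that fell, its promoter is shown for comparison with that of CDC6 (RefSeq, GRCh38.p14, chr14:49688185-49688464, minus strand), over the same span around the start. Capitals mark 1 E2F core read from the opposite strand, GCGCCAA, which spans the start from base -5 to base 2.
POLE2 promoter: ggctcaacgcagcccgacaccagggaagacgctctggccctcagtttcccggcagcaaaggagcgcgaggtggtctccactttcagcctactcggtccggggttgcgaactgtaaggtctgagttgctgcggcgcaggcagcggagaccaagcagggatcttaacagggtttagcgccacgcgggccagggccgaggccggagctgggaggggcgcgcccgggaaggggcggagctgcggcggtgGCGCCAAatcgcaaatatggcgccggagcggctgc
Both the largest rise and the only fall had an E2F core within 20 bases of the start.

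POLA2, the regulatory subunit of polymerase alpha-primase, which makes the primers of both strands, read 8.98, 9.90, 9.94 and 9.98 in CDK9 siRNA cells. In control siRNA cells it read 8.99, 9.64, 9.65 and 9.61. The rise of 0.23 (adjusted p = 0.0427, and 0.102 in the paired fit) was 0.31 in set 2 and 0.00 in set 1, a contrast that did not pass (adjusted p = 0.124). PRIM1, the catalytic primase subunit, read 10.13, 11.24, 11.32 and 11.23 in CDK9 siRNA cells, against 10.37, 11.00, 11.00 and 11.01 in control siRNA cells. The sets pointed in opposite directions for PRIM1, at -0.23 and 0.26 (interaction adjusted p = 0.0485), and it was not called over both (0.14, adjusted p = 0.334). PRIM1 and POLE2 were the 2 of 51 members whose difference depended on the array set, against 2.14% of all genes. POLA1, the catalytic subunit, lay at 0.00 (95% confidence interval -0.16 to 0.16), PRIM2 at 0.07, and the polymerase delta genes POLD1, POLD2 and POLD3 at 0.10, 0.13 and 0.14, none of which passed.

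The clamp, flap, single-strand binding and chromatin assembly genes had 6 of 13 members higher (46.2%) and 0 lower, with a median of 0.14. Among genes of like mean, 12.2% were higher and 10.1% lower. In the paired fit 2 of the 13 were higher (15.4%), beside 7.94% of genes of like mean. All 13 were above 0 over both sets, and 10 of 13 in set 1. RFC4, a subunit of the clamp loader that places PCNA on DNA, read 9.55, 10.37, 10.41 and 10.29 in CDK9 siRNA cells, against 9.20, 9.85, 9.77 and 9.89 in control siRNA cells. It was higher in every pair, by 0.35 in set 1 and 0.52 in set 2. The difference was 0.48 ± 0.06 (SE, n = 4 per group, adjusted p = 0.00106). RFC2, another loader subunit, read 9.69, 10.62, 10.58 and 10.60 with CDK9 siRNA, against 9.44, 10.37, 10.42 and 10.51 with control siRNA. RFC2 rose by 0.19 (adjusted p = 0.0401), but it was not called in the paired fit (adjusted p = 0.0914) or in set 2 alone (0.0672). RFC1, RFC3 and RFC5 lay at 0.01, 0.08 and 0.06 and did not pass. The upper bounds of their 95% confidence intervals, at most 0.20, were below the lower bound of RFC4, 0.35.

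PCNA, the sliding clamp that tethers the polymerases, read 10.71, 11.82, 11.89 and 11.76 in CDK9 siRNA cells, against 10.65, 11.55, 11.54 and 11.59 in control siRNA cells. The rise was 0.21 (adjusted p = 0.0406, and 0.0977 in the paired fit), with 0.26 in set 2 and 0.06 in set 1, a contrast that did not pass (adjusted p = 0.298). FEN1, the nuclease that trims flaps of Okazaki fragments, stood at 9.95, 10.94, 10.97 and 11.03 with CDK9 siRNA, against 9.79, 10.76, 10.74 and 10.72 with control siRNA. FEN1 rose by 0.22 (adjusted p = 0.0164, and 0.057 in the paired fit). Its partner LIG1, the ligase that seals the fragments, was at 0.01, with a 95% confidence interval of -0.10 to 0.11.

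RPA2, the middle subunit of the single-strand binding complex, read 8.21, 9.21, 9.34 and 9.26 in CDK9 siRNA cells, against 8.05, 9.02, 9.02 and 8.98 in control siRNA cells. It rose by 0.24 (adjusted p = 0.0155) and was also called in the paired fit (adjusted p = 0.047). RPA1 and RPA3 differed by 0.06 and 0.14 (adjusted p = 0.453 and 0.0799). CHAF1B, a subunit of the CAF-1 complex that deposits histones behind the fork, read 8.54, 9.47, 9.58 and 9.52 with CDK9 siRNA, against 8.48, 9.26, 9.20 and 9.27 with control siRNA. It rose by 0.22 (adjusted p = 0.0345, and 0.0881 in the paired fit), whereas the largest CAF-1 subunit CHAF1A lay at 0.02 (95% confidence interval -0.08 to 0.12). In each of these complexes the called and the uncalled subunits were measured on the same arrays, but the difference between subunits was not tested. The 95% confidence intervals of RPA2 (0.12 to 0.35) and RPA3 (0.04 to 0.25) overlapped.

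Of the 4 nucleotide genes, 1 rose and 0 fell. TYMS, thymidylate synthase, read 11.91, 12.41, 12.53 and 12.49 in CDK9 siRNA cells, against 11.80, 12.20, 12.19 and 12.21 in control siRNA cells. It was higher in 4 of 4 pairs, by 0.23 (adjusted p = 0.0206, and 0.0598 in the paired fit). The 2 subunits of ribonucleotide reductase had opposite signs, and neither passed: RRM1 at 0.14 (adjusted p = 0.125) and RRM2, the cell cycle regulated subunit, at -0.14 (adjusted p = 0.11). RRM2 read 9.54, 10.59, 10.56 and 10.57 in CDK9 siRNA cells, against 9.80, 10.66, 10.67 and 10.67 in control siRNA cells, below the controls in each pair. TK1, thymidine kinase, lay at 0.09 (adjusted p = 0.325).

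The array sets gave different centres for the members. Their median difference was 0.01 in set 1 and 0.12 in set 2, while the 4604 genes of highest signal had medians of -0.07 and 0.02. In both sets the members' median was thus above that of highly expressed genes. In set 1, 27 of 51 members were above 0 (52.9%), against 37.3% of the 4604 genes of highest signal and 50.6% of all genes. For 43 of 51 members the set 1 difference was below that of set 2, against 68.9% of genes of like mean, 69.3% of the 4604 genes of highest signal and 51.7% of all genes. The differences of the sets correlated across the 51 members at Pearson's r = 0.75 and Spearman's rho = 0.60. The members share arrays and are not independent replicates. Across all genes, dim ones included, the values were 0.37 and 0.25. The correlation was not computed for genes of like mean, so these values do not set the members apart.

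**Figure D3:**
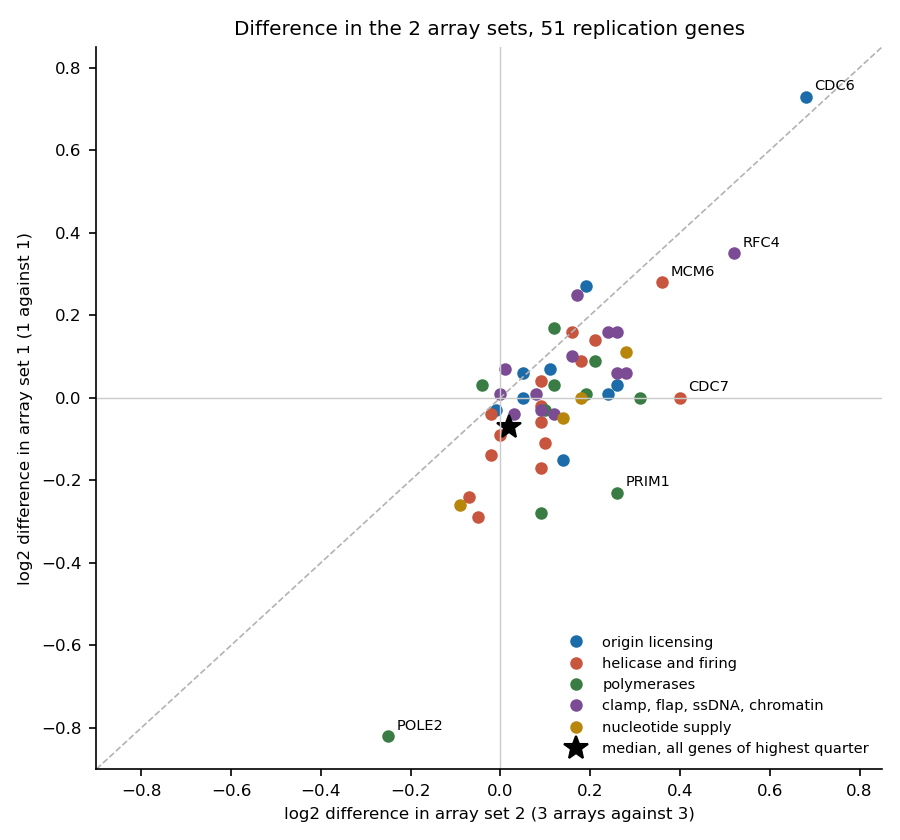
Log2 difference (CDK9 siRNA minus control siRNA) of each replication gene in array set 1 (vertical, 1 array against 1) and array set 2 (horizontal, 3 against 3), the dashed line marking equal values and the star the medians of the 4604 genes of highest signal (-0.07 and 0.02). CDC6, RFC4 and MCM6 lie high in both sets, POLE2 lies low in both, and PRIM1 has opposite signs.

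In set 2 alone, limma called 19 members higher and 1 lower, 37.3% higher beside 9.52% of all genes (8.57% lower, 18.1% in either direction), 16.7% of the 4604 genes of highest signal and 17.7% of genes of like mean. Of the 14 genes called over both sets, 13 were among the 19, the exception being RFC2. The 6 additional genes were GMNN, ORC3, MCM3, PRIM1, POLE and RRM1. The 3 CDK9 siRNA arrays of set 2 lay above all 3 controls for 30 of 51 members, against 35.6% of genes of like mean, 33.8% of the 4604 genes of highest signal and 18.7% of all genes. They lay below the controls for 2 members, POLE2 and RRM2, against 25.2%, 25.6% and 19.5% of the same lists. By role, the count above was 5 of 9 licensing, 7 of 15 helicase, 6 of 10 polymerase, 9 of 13 clamp and chromatin and 3 of 4 nucleotide genes. Over all 4 same-numbered pairs, 23 members were higher in every pair, against 24.2% of genes of like mean, 23.3% of the 4604 genes of highest signal and 15.4% of all genes. POLE2, RRM2 and MCM7 were lower in every pair (3 members), against 26.0%, 27.0% and 17.6% of the same lists.

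The 36 members that did not pass had intervals that limit their change. For 30 of them the 95% confidence interval lay within 1.2-fold in either direction (0.26 on the log2 scale). Over all 36 the bounds ran from -0.28, for DBF4, to 0.36, for GMNN. At the threshold, POLA2 was the last gene inside (adjusted p = 0.0427) and MCM3 the nearest outside (0.0562).

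Other genes of the replication pathway, outside the 51, gave similar shares, with no test of a difference. Beside 6.73% higher and 7.47% lower of all genes tested, 7 of 31 other replisome genes rose (22.6%) and 0 fell, with a median of 0.09. They were RNASEH2C, a subunit of the RNA-removing ribonuclease H2 (0.39, adjusted p = 0.00269), RNASEH2A, its catalytic subunit (0.20), and the histone chaperone ASF1B (0.27). The fork protection protein CLSPN (0.26), DONSON (0.21) and the alternative clamp loader subunits DSCC1 (0.21) and CHTF8 (0.20) also rose. RNASEH2C and ASF1B were called in the paired fit (adjusted p = 0.0123 and 0.0347), and the other 5 had 0.0548 to 0.0935. Of 10 other nucleotide genes measured, 2 rose and 0 fell: the deaminase DCTD (0.21) and SAMHD1, a deoxynucleotide hydrolase (0.30), neither called in the paired fit (0.0611 and 0.0849).

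Among 19 regulators of S phase entry, 5 rose (26.3%) and 1 fell (5.26%), beside 6.73% and 7.47% of all genes tested. E2F1 (0.22), E2F2 (0.28), E2F5 (0.33), E2F8 (0.25) and the E2F partner TFDP1 (0.19) rose with adjusted p values of 0.0298 to 0.0439, and CCNE1, cyclin E1, fell by 0.21 (adjusted p = 0.0356). In the paired fit only E2F5 of these 6 was called (adjusted p = 0.0238). The S phase cyclin CCNA2 lay at 0.01, its kinase CDK2 at 0.13 and the kinase inhibitor CDKN1A at -0.01, and none passed. CDKN1B, the inhibitor p27, had opposite signs in the sets, at -0.35 in set 1 and 0.44 in set 2 (interaction adjusted p = 0.0259).

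**Figure D4:**
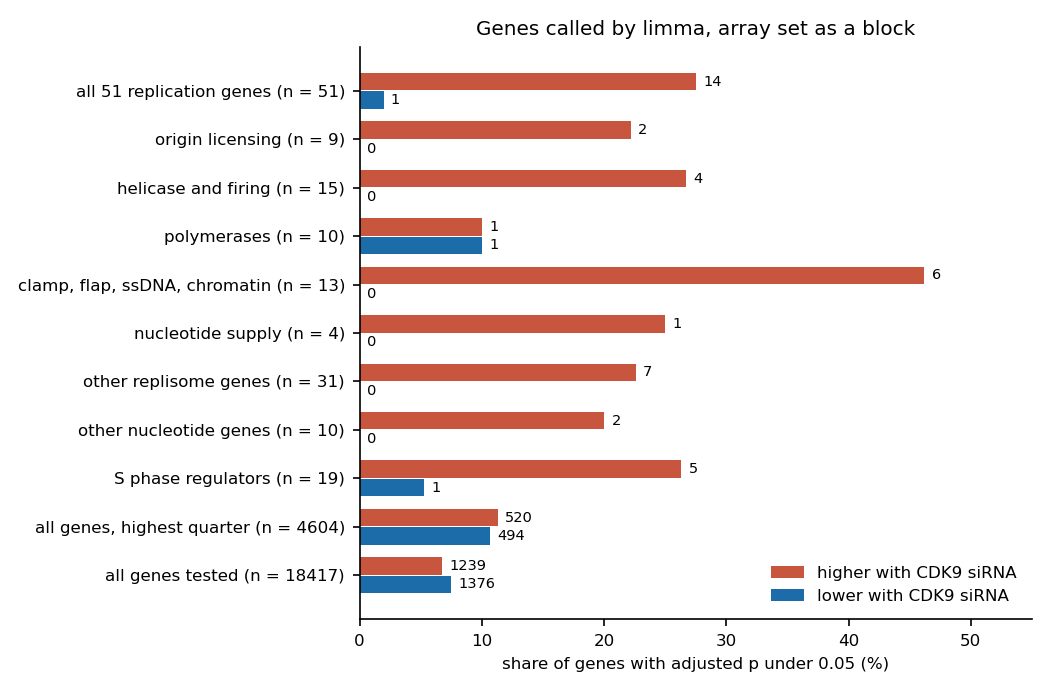
Share of genes called higher and lower with CDK9 siRNA (%, limma with the array set as a block), by list, with the number of genes at each bar. The 51 replication genes had 27.5% higher and 1.96% lower, against 6.73% and 7.47% of all genes tested. Of the 4604 genes of highest signal, 11.3% were higher and 10.7% lower. In the paired fit, not drawn, 7.84% of members were higher, against 7.04% of those 4604 genes.

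A sequence feature that the choice of members did not use was examined in their promoters. Of the 51, 45 had a window of 300 bases in the RefSeq promoter table (GRCh38.p14), from 250 before the start to 50 after it. The E2F core TTCGCGC or TTGGCGC, searched on both strands, occurred in 17 of the 45 (37.8%), against 7.01% of the 14239 tested genes with a window and 5.18% of all 27305 promoters. It was found in 5 of 13 members that rose (38.5%) and in 11 of 31 that did not pass (35.5%). A difference between these shares was not tested. The CCAAT box was in 53.3% of member windows, against 36.3% of tested genes, the GC box GGGCGG in 71.1%, against 60.0%, and the CHR element TTTGAA or TTCGAA in 6.67%, against 13.3%. RFC4, the second largest rise, had neither of these searched E2F cores nor a CCAAT box in its window. The related letters TTCCCGC were not searched, so the shares leave them out, and the RFC4 window holds them on each strand.

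Every called member with a TTCGCGC or TTGGCGC core is printed here with 10 flanking bases on each side. The core is in capitals, with the position of its first base relative to the start. Cores that overlap on the 2 strands are joined, as in ORC1 and MCM6.
CDC6 at 9: ccattcggatTTGGCGCgagcgcggct
ORC1 at -22: gccacgccgaTTGGCGCGAAgttttctttt
MCM6 at -151: ggctttgcatTTGGCGCGAAatccctttcc
MCM6 at -89: ttggtcaggtTTGGCGCGAAatctccagct
MCM8 at 27: gatcactgaaGCGCCAAaaaagaattt
POLA2 at -52: ggctcccggtTTCGCGCatgcgtgcac
POLE2 at -5: tgcggcggtgGCGCCAAatcgcaaata
The windows lie on GRCh38.p14 at chr17:40287877-40287903, plus strand (CDC6), chr1:52404426-52404455, minus strand (ORC1), chr2:135876575-135876604, minus strand, and chr2:135876513-135876542, minus strand (MCM6), chr20:5950668-5950694, plus strand (MCM8), chr11:65261900-65261926, plus strand (POLA2) and chr14:49688203-49688229, minus strand (POLE2). MCM6 carried 2 copies of the joined core, TTGGCGCGAA. These letters are matches to a motif and not measured binding sites.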

How the data were processed

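The values as deposited by the authors are log2 expression, 33297 probe sets by 8 arrays, complete and between 2.01 and 14.7. The submitters' processing notes name hg19, limma, RMA and Affymetrix Expression Console 1.1, without saying what each did. The number of arrays limits the precision.

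A single symbol was listed for 19460 probe sets, more than 1 for 1754 and no symbol for 12083, and 19429 entrez identifiers matched RefSeq (GRCh38.p14), changing 0 symbols. The probe set with the highest mean was kept for each of 18417 genes. The two-sided test was limma's (version 3.58.1, R 4.3.3, lmFit then eBayes), blocked by array set, and p-values were adjusted over all genes by Benjamini-Hochberg, at 0.05. Sets follow the numbering of the arrays in the sample descriptions. The fit was tested on simulated data. Summaries were made in Python 3.11.15 (numpy 2.4.6, pandas 2.3.3) and drawn with matplotlib 3.10.9. Arrays with mostly identical values made up 0 pairs.

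Same-numbered arrays deviated together from their group means across genes (r = 0.822, 0.537, 0.494 and 0.607 for replicates 1 to 4), above the limit of 0.1. By that limit a fit with the numbers as pairs was set beside the main fit, which was blocked by array set only. Values of the paired fit are given where a call changes. Different-numbered arrays of array set 2 passed the same limit, at r = 0.41 to 0.56, so the check cannot show pairing by number. With deviations taken within array set 2, r was 0.108, -0.01 and 0.170 for same-numbered arrays. It was -0.18 to 0.08 for different-numbered arrays, so most of the correlation over all arrays lay between sets.

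The alternatives were the replicate number as a block, no block, array set 2 alone, 2 scalings, a filter on the dimmest 30% (below 6.14), averaged probe sets, a variance trend and leaving out each array. Members, lists and tests were chosen with earlier results of these data known. All 51 members are named, and values on every array are given for each one called or with a set-dependent difference. RRM2, called under other settings, and the core windows were added after values were seen. Promoter sequences were read for the 3 called members with the largest differences, and those of CDC6 and POLE2 are printed.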

Additional observations from a re-analysis of the deposited data

Results flagged for a closer look

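Among the 4 same-numbered differences of each of the 51 replication genes and CDK9, 1 difference stood far from the other 3 for ORC3, MCM5 and POLE2, by Dixon's test of the gap over the range. About 1 in 20 groups is marked by chance, and 3 of 52 were. In all 3 the distant value was that of replicate 1. ORC3, an origin recognition subunit, differed by 0.01 there and by 0.24 to 0.25 in the other pairs. MCM5, of the helicase ring, differed by -0.02 there and by 0.08 to 0.10 in the others. POLE2, the polymerase epsilon subunit, differed by -0.82 there and by -0.29 to -0.22 in the others.

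In limma, the group difference depended on the array set for PRIM1, the primase subunit (set 1 minus set 2, -0.49, adjusted p = 0.0485), and for POLE2 (-0.56, adjusted p = 0.0465). Set 1 holds 1 array of each group, and its part in these contrasts cannot be told apart from that of a single pair of cultures.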

How the results depend on the processing

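CDC6, MCM6 and RFC4 kept their calls under every alternative other than the fit without a block, where the log2 differences are the same and the difference between sets enters the residual. In the paired fit, which takes each replicate number as its own block, 4 members rose and 0 fell (all genes, 813 and 875), and 11 members lost their calls at adjusted p values of 0.057 to 0.108. Without a block, 0 members and 0 genes were called in either direction by limma (unadjusted p under 0.05: 1 member higher and 0 lower, 28 genes higher and 23 lower), and CDK9, at -1.82, had an adjusted p of 1. With quantile normalization repeated, or with a variance trend, 2 members were lower, POLE2 and RRM2 (RRM2 adjusted p = 0.0454 and 0.0302). Without one array at a time, 3 to 19 members were higher and 0 to 1 lower (all genes, 714 to 1753 and 806 to 1578). The higher count was 7, 5 and 5 without CDK9 siRNA replicate 2, 3 or 4, 6, 3 and 4 without control replicate 2, 3 or 4, and 19 without either replicate 1. Leaving out either array of set 1 leaves set 2 alone to estimate the difference.

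Signs of members near 0, which passed in no setting, turned. GINS3 and POLA1 were 0.00 and 0.09 in set 2 alone. ORC5 and POLA1 were 0.00 and 0.02 with arrays centred on their medians, and both were 0.01 with quantile normalization repeated. Without one array, ORC5 ran from -0.04 to 0.03, GINS3 from -0.07 to 0.00, GINS4 from 0.00 to 0.09, POLA1 from -0.03 to 0.09, RFC1 from -0.01 to 0.03 and LIG1 from -0.01 to 0.02. With quantile normalization repeated, the differences of PRIM1 and POLE2 between sets were no longer called, so 0 members remained (smallest adjusted p = 0.0669, 5 at an unadjusted p under 0.05). The longer E2F motif TTTCGCGC or TTTGGCGC was in 11 member windows. It was in 4 of 13 members that rose (30.8%) and in 6 of 31 that did not pass (19.4%). The wider motif that also takes TTCGCGG or TTGGCGG, chosen after seeing the data, was in 23. That motif was in 6 of 13 members that rose (46.2%) and in 16 of 31 that did not pass (51.6%). Differences between these shares were not tested. DBF4 had no value with dim genes left out. Where a cause is not stated, it was not tested.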
